A study of Mus musculus with 30 samples.

Results

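Carcinoma in situ lesions of a mouse model of oral squamous carcinoma were compared with hyperplastic lesions of the same model. Carcinoma in situ is a full-thickness malignant change of the squamous epithelium that has not yet crossed the basement membrane, and hyperplasia is the earliest lesion of the model, a thickened epithelium. The members were all samples labelled with either pathological stage, which came to 14 of the 30 samples of the series: 6 carcinoma in situ samples (C01, C02, C04, C07, C10 and C11) and 8 hyperplasia samples (A01 to A08). The remaining 16 samples (3 normal, 7 dysplasia and 6 invasive carcinoma) entered the fit to estimate the spread. They are described only where a gene is placed along the stages. Both groups carried the same genotype and the same exposure. All mice were male C57BL/6J that drank 4-nitroquinoline 1-oxide (4NQO), a DNA-damaging carcinogen, at 100 ug/mL for 10 weeks from 6 weeks of age. The labels name no transgene and no further treatment for either group. RNA was measured by stranded poly(A) RNA sequencing of bulk tissue. The labels do not say that each sample came from a separate mouse, so the p-values below measure the spread between these samples. Code letter and stage also coincide, with A for every hyperplasia sample and C for both carcinoma stages, so a difference between the lettered sets and a difference between stages cannot be told apart.

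4NQO forms bulky DNA adducts in the oral epithelium and drives it through hyperplasia and dysplasia to squamous carcinoma. In squamous epithelium, basal cells anchor to the basement membrane through integrins and laminin-332, and their daughters switch keratins as they move up and cornify. Inflammation of such an epithelium often runs through IL-17 and IL-1, which make keratinocytes release chemokines for neutrophils. A separate antiviral programme, the interferon-stimulated genes, is switched on by type I or type III interferon.

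Total counts ranged from 17725604 to 28023098 per sample over the series, and 17638 genes passed the filter on low counts. Transcripts of squamous epithelium were present in every sample. Krt5 had 2643, 3546 and 4297 CPM in carcinoma in situ, against 1823, 2414 and 2970.0 CPM in hyperplasia (lowest, median and highest sample of each group, as in every such triplet below), and Krt13, a keratin of the upper layers of oral mucosa, had 16150.0, 20890.0 and 31490.0 CPM in carcinoma in situ, against 20140.0, 25030.0 and 28100.0 CPM in hyperplasia. CPM is the gene's count relative to its scaled library size. The specimens were not pure epithelium. The 31 tested skeletal muscle genes summed to 36745, 48620.0 and 64301 CPM in carcinoma in situ and 48284, 60016 and 86410.0 CPM in hyperplasia, and the 19 salivary gland genes to 46.1, 1895 and 10114 CPM in carcinoma in situ and 44.5, 518 and 22959 CPM in hyperplasia. In a principal component analysis of the 14 samples, the first component (37.15% of the variance) ordered samples by salivary gland genes and the second (26.05%) by inflammatory genes. On the second component hyperplasia ranged from -31.94 to 6.14, and carcinoma in situ samples C04 (-14.71) and C01 (5.65) lay inside that range. The other 4 carcinoma in situ samples lay between 27.43 and 40.59. Results that rest on single samples are therefore given with and without them.

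The change was broad and went both ways. At an adjusted p under 0.05 (edgeR quasi-likelihood test, Benjamini-Hochberg over all tested genes), 3351 genes (19.0%) were called, 1872 (10.6%) higher and 1479 (8.39%) lower in carcinoma in situ. At an unadjusted p under 0.05 there were 5932 genes (33.6%). Of all tested genes, 294 (1.67%) were called and at least 2-fold higher, and 248 (1.41%) were called and at least 2-fold lower. The median log2 fold change of all tested genes was -0.004. Without sample C04 the calls numbered 2764 higher and 2155 lower, and without C07 1105 higher and 751 lower. Without C02 they numbered 1222 and 782, and the lower count was 928 without C10 and 967 without A04. Every carcinoma in situ sample lay above every hyperplasia sample in 261 genes (1.48%) and below every one in 267 genes (1.51%). The gene lists below are read against these shares.

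**Figure D1:**
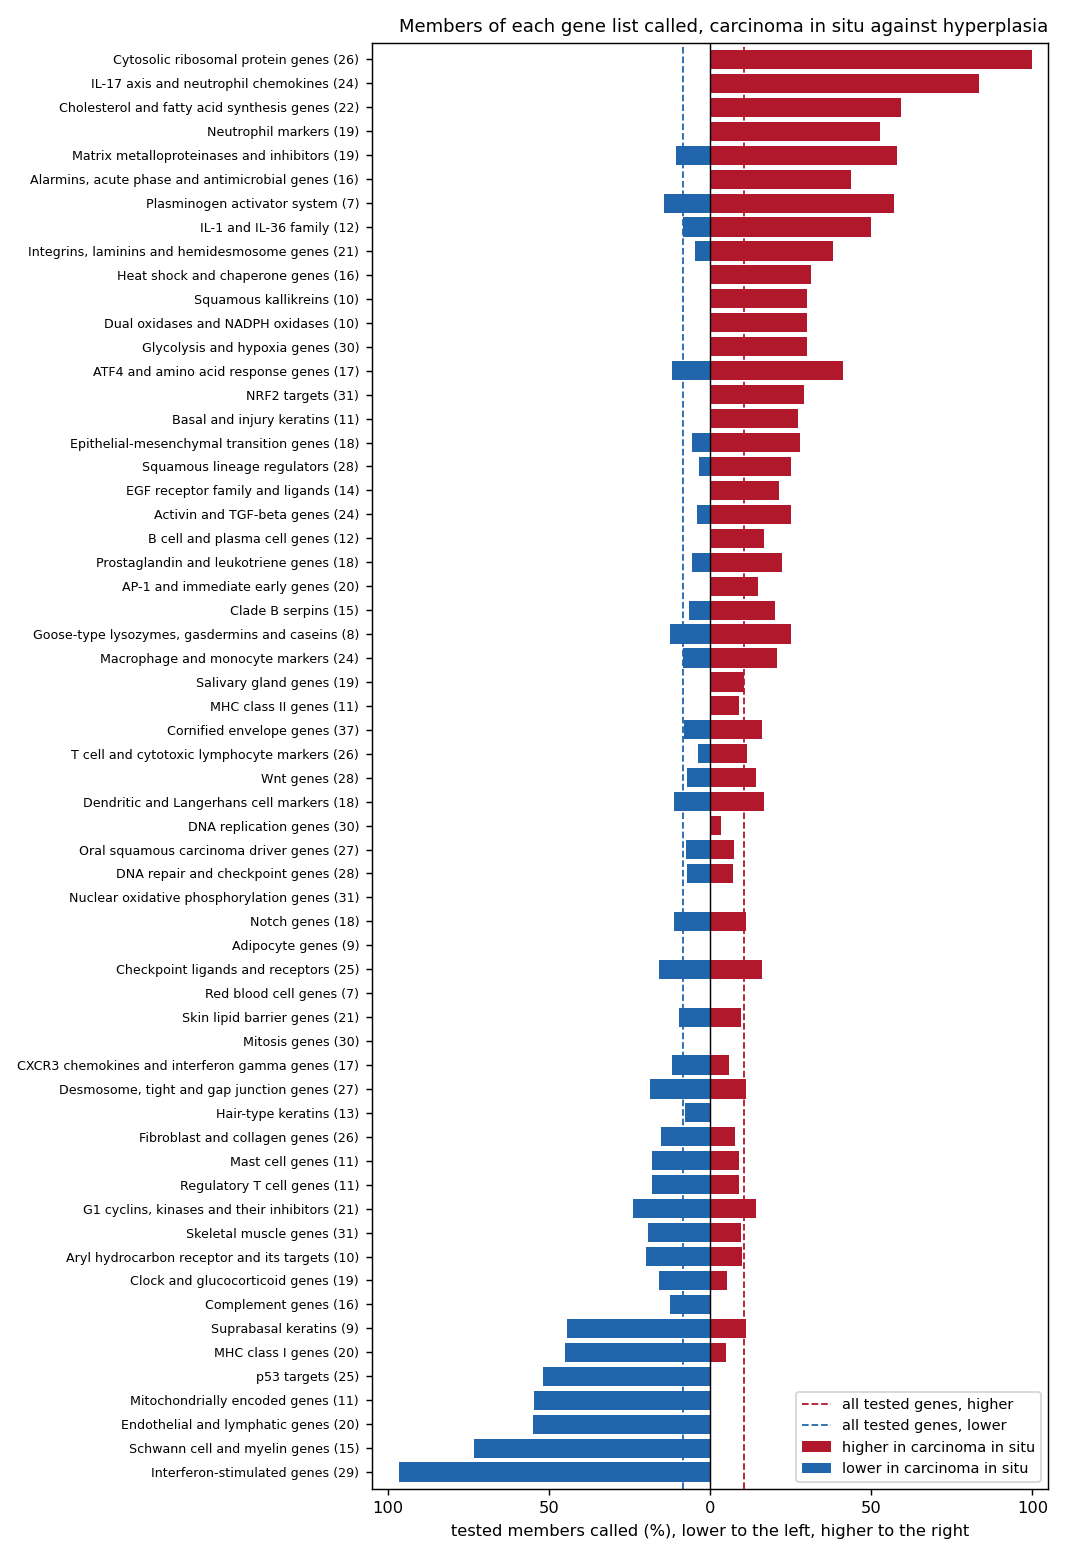
Share of the tested members of each of 60 gene lists (number tested in parentheses) that were called higher (red, to the right) or lower (blue, to the left) in carcinoma in situ than in hyperplasia, with dashed lines at the shares among all tested genes, 10.6% and 8.39%. All 26 ribosomal protein genes and 20 of 24 IL-17 and chemokine genes were called higher, and 28 of 29 interferon-stimulated genes lower.

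The IL-17 axis and the chemokines that recruit neutrophils were higher in carcinoma in situ. Of 24 tested genes of this list, 20 were called higher and 0 lower, with a median log2 fold change of 2.48, and the count was 16 to 22 when any 1 sample was left out. Some of these genes passed the filter on low counts only in the fit of all stages. With only the 2 groups fitted, 16 were tested, and 14 of those were called higher and 0 lower. Il17a and Il17f encode cytokines of T cells and innate lymphoid cells. Il17f had 0.874, 2.79 and 6.09 CPM in carcinoma in situ, against 0, 0.0738 and 0.616 CPM in hyperplasia (log2 fold change 4.50 ± 0.69 (SE), adjusted p = 0.000138), and its groups did not overlap. Il17a was close to absent from hyperplasia, with 8 counts over its 8 samples, against 225 counts over 6 carcinoma in situ samples (log2 fold change 4.90 ± 0.74 (SE), adjusted p = 0.00011). Each carcinoma in situ sample was above every hyperplasia sample for it as well. Zc3h12a, whose product Regnase-1 degrades cytokine mRNAs and is itself induced by IL-17, had 71.2, 109.8 and 168 CPM in carcinoma in situ, against 18.6, 34.5 and 62.4 CPM in hyperplasia (log2 fold change 1.64 ± 0.23 (SE), adjusted p = 4.51e-05), again without overlap.

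Chemokines that attract neutrophils varied widely among carcinoma in situ samples. Cxcl1 had 1.09, 5.37 and 19.6 CPM in carcinoma in situ, against 0.225, 0.535 and 1.19 CPM in hyperplasia (log2 fold change 3.61 ± 0.57 (SE), adjusted p = 0.000178). 5 of 6 samples exceeded every hyperplasia sample, C04 at 1.09 CPM being the one that did not. Cxcl5 had 1.21, 11.4 and 34.02 CPM in carcinoma in situ, against 0, 0.576 and 4.61 CPM in hyperplasia (log2 fold change 3.38 ± 0.87 (SE), adjusted p = 0.00951). Cxcl2 had 0.612, 5.08 and 11.6 CPM in carcinoma in situ, against 0.0374, 0.124 and 1.24 CPM in hyperplasia (log2 fold change 3.93 ± 0.78 (SE), adjusted p = 0.00153), with 0.612 CPM in C04 and 1.002 CPM in C11 inside the hyperplasia range. Cxcl3 had 0.437, 4.84 and 6.73 CPM in carcinoma in situ, against 0, 0.0251 and 0.703 CPM in hyperplasia (log2 fold change 4.40 ± 0.83 (SE), adjusted p = 0.000814). Il17c, an epithelial IL-17 cytokine, had 0.262, 1.12 and 6.64 CPM in carcinoma in situ, against 0.0490, 0.132 and 0.728 CPM in hyperplasia (log2 fold change 2.99 ± 0.61 (SE), adjusted p = 0.00155). The samples above every hyperplasia sample numbered 5 of 6 for Cxcl5, 5 for Cxcl3 and 4 for Il17c.

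Cxcl1, Cxcl2 and Cxcl3 are related chemokine genes on chromosome 5. Their proximal promoters are shown because all 3 genes were called higher and hold the same motif. The lines give the last 130 bases before the start site, 5′ to 3′ on the plus strand, from RefSeq on GRCm38.p6 (chr5:90891115-90891244, chr5:90903769-90903898 and chr5:90785971-90786100). Capitals mark matches to the NF-kappaB motif (GGGA, any 2 bases, TTCC), searched on both strands, and overlapping matches on either strand run together.
Cxcl1: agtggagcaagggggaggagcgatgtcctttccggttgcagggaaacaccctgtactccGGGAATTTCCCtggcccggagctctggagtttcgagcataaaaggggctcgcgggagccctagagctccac
Cxcl2: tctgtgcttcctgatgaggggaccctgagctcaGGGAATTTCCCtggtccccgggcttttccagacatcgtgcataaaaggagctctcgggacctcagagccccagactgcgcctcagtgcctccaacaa
Cxcl3: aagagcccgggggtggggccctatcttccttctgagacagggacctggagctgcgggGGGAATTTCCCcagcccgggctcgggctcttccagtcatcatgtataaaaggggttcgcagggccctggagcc
The first match started 71, 97 and 73 bases before the start site of Cxcl1, Cxcl2 and Cxcl3. Over the 250 bases before the start, 4 of 16 genes of the list with a promoter entry held this motif (25.0%), against 1.36% of all 27025 genes in the table. A match is a description of the letters only.

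Genes of the IL-1 family and of neutrophils followed. Il1b, the main secreted IL-1 cytokine, had 4.20, 16.5 and 41.04 CPM in carcinoma in situ, against 1.31, 2.56 and 3.84 CPM in hyperplasia (log2 fold change 2.95 ± 0.50 (SE), adjusted p = 0.000366), and every carcinoma in situ sample was above every hyperplasia sample. Il1rn, the receptor antagonist, had 57.1, 144 and 312 CPM in carcinoma in situ, against 38.02, 51.4 and 98.1 CPM in hyperplasia (log2 fold change 1.57 ± 0.27 (SE), adjusted p = 0.000345). Il1r2, a decoy receptor, had 16.6, 21.8 and 28.1 CPM in carcinoma in situ, against 8.94, 13.3 and 18.9 CPM in hyperplasia (log2 fold change 0.74 ± 0.17 (SE), adjusted p = 0.00414). For both, 5 of 6 samples exceeded every hyperplasia sample. Of 12 tested IL-1 and IL-36 family genes 6 were called higher, with 0.41 as the median log2 fold change, and 1 (Il18) lower. Without C02 the higher count was 3, and Il18 kept its call in only 2 of the 14 leave-one-out fits, those without C01 and without C04.

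Csf3r, the G-CSF receptor of neutrophils, had 2.14, 6.23 and 28.8 CPM in carcinoma in situ, against 1.26, 1.58 and 1.87 CPM in hyperplasia (log2 fold change 2.82 ± 0.62 (SE), adjusted p = 0.003), without overlap. C07 held 28.8 CPM and C10 21.01 CPM, whereas C04 at 2.14 CPM was only just above hyperplasia. Of 19 tested neutrophil genes 10 were called higher and 0 lower, with a median of 1.82. Here too some genes passed the filter on low counts only in the fit of all stages. With only the 2 groups fitted, 9 were tested, 6 of them called higher and 0 lower, with a median of 1.29. Clec4d and Clec4e, pattern receptors of myeloid cells, had 0.481, 2.28 and 11.3 CPM in carcinoma in situ, against 0.1497, 0.252 and 1.06 CPM in hyperplasia for Clec4d (log2 fold change 3.27 ± 0.72 (SE), adjusted p = 0.003). Clec4e had 0.306, 1.78 and 9.39 CPM in carcinoma in situ, against 0.0490, 0.118 and 0.324 CPM in hyperplasia (log2 fold change 4.31 ± 0.79 (SE), adjusted p = 0.000653). In the fit of all stages the count of neutrophil genes called higher was 5 without C07. The list is not clean: Il1f9 (IL-36γ) and Asprv1 are also keratinocyte genes, and Asprv1, which made up most of the list's summed CPM, had 603, 1055 and 1748 CPM in carcinoma in situ, against 1320.0, 1547 and 1871 CPM in hyperplasia (log2 fold change -0.49 ± 0.21 (SE), adjusted p = 0.103). The neutrophil genes Ly6g and Elane were too low to test, Ly6g with 5 counts over the 6 carcinoma in situ samples and 4 over the 8 hyperplasia samples, and Elane with 0 in carcinoma in situ and 4 in hyperplasia. In bulk tissue fewer cells of a type and less RNA per cell cannot be told apart, here and for every cell type below.

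Antimicrobial and acute-phase transcripts included the largest change among genes of at least 10 CPM. Saa3, an acute-phase serum amyloid made locally in inflamed tissue (ENSMUSG00000040026, chr7:46711998-46715700 on the minus strand of GRCm38), had 3.28, 41.4 and 190.2 CPM in carcinoma in situ, against 0.151, 1.44 and 5.88 CPM in hyperplasia, a 32.8-fold difference (log2 fold change 5.03 ± 0.86 (SE), adjusted p = 0.0004). 4 of 6 samples were above every hyperplasia sample, and C04 (3.28 CPM) and C11 (5.51 CPM) lay inside the range. S100a8 and S100a9 encode the subunits of calprotectin, found in neutrophils and stressed keratinocytes, both called higher. S100a8 had 323, 793 and 1604 CPM in carcinoma in situ, against 5.54, 17.5 and 553 CPM in hyperplasia (log2 fold change 3.03 ± 0.80 (SE), adjusted p = 0.0105). S100a9 had 371, 982 and 2205 CPM in carcinoma in situ, against 6.39, 22.8 and 798 CPM in hyperplasia (log2 fold change 2.93 ± 0.83 (SE), adjusted p = 0.0168). A05 was the hyperplasia sample with the highest S100a8, 553 CPM. Lcn2, which binds bacterial siderophores, had 11.4, 35.5 and 52.6 CPM in carcinoma in situ, against 1.42, 2.30 and 12.8 CPM in hyperplasia (log2 fold change 2.88 ± 0.50 (SE), adjusted p = 0.000459). The beta-defensin Defb3 had 71.7, 125 and 253 CPM in carcinoma in situ, against 3.86, 11.1 and 75.9 CPM in hyperplasia (log2 fold change 2.77 ± 0.54 (SE), adjusted p = 0.00116). Lcn2 was above every hyperplasia sample in 5 of 6 samples and Defb3 in 4. In all, 7 of 16 tested genes of this list were called higher and 0 lower. The higher count was 4 when only the 2 groups were fitted, where S100a8 and S100a9 lost their calls, and S100a9 lost its call with a covariate for muscle content as well.

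**Figure D2:**
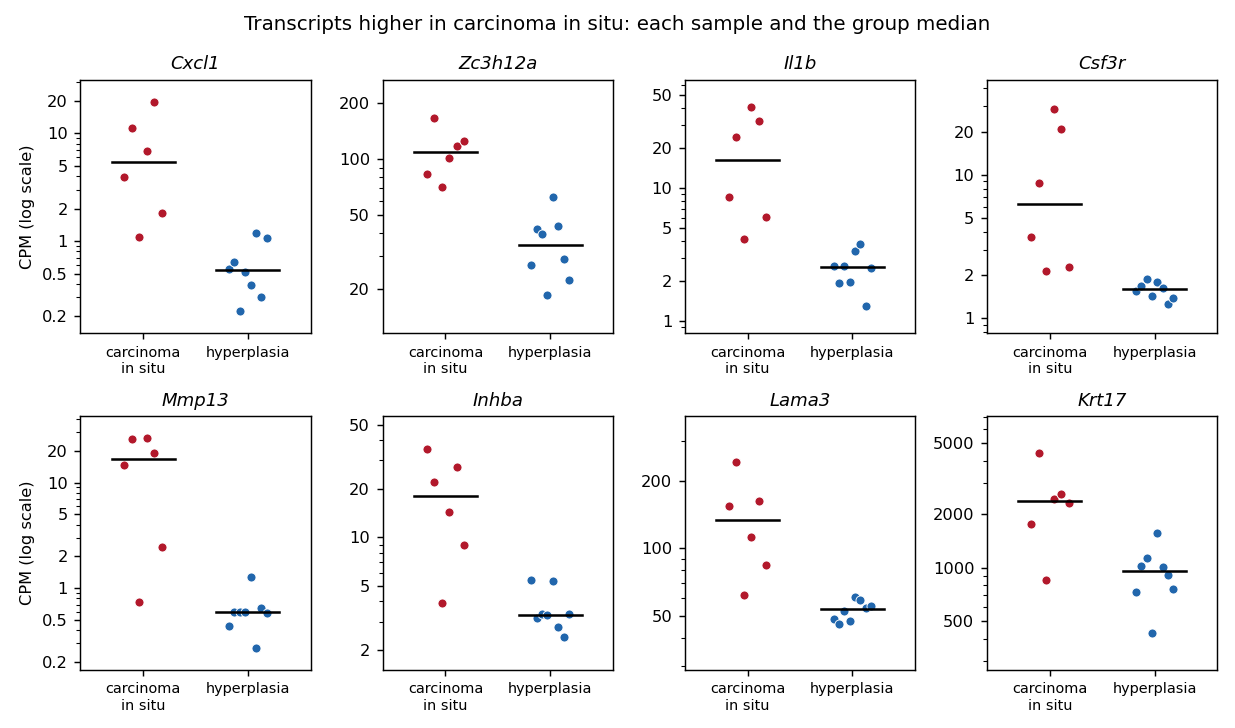
CPM on a log scale of 8 transcripts in each carcinoma in situ sample (red, left) and each hyperplasia sample (blue, right), with the group median as a line. The groups did not overlap for Zc3h12a, Il1b, Csf3r or Lama3, and the lowest carcinoma in situ sample of Cxcl1, Mmp13, Inhba and Krt17 was inside the hyperplasia range.

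Lymphocyte genes did not move as a block. Of 26 tested T cell and cytotoxic genes 3 were called higher and 1 lower, against 10.6% and 8.39% of all genes. The higher count was 1 without C02, C07, C10, C11, A01, A02, A04 or A08. Trdc, the constant region of the δ chain of γδ T cells, had 1.84, 4.37 and 25.4 CPM in carcinoma in situ, against 0.257, 1.17 and 1.63 CPM in hyperplasia (log2 fold change 2.83 ± 0.43 (SE), adjusted p = 9.54e-05), without overlap and highest in C02 at 25.4 CPM, with 3.24 CPM in C07. The general T cell gene Cd3e had 0.437, 1.21 and 1.62 CPM in carcinoma in situ, against 0.504, 0.806 and 1.57 CPM in hyperplasia and was not called (log2 fold change 0.46 ± 0.34 (SE), adjusted p = 0.36). Cd8a was not called either (log2 fold change 0.35 ± 0.49 (SE), adjusted p = 0.655). Tbx21, the type 1 helper factor, was lower, with 0.125, 0.295 and 0.831 CPM in carcinoma in situ, against 0.301, 1.26 and 1.496 CPM in hyperplasia (log2 fold change -1.397 ± 0.38 (SE), adjusted p = 0.0115). Foxp3, which defines regulatory T cells, had 0.624, 1.16 and 1.67 CPM in carcinoma in situ, against 1.29, 1.96 and 3.21 CPM in hyperplasia (log2 fold change -0.82 ± 0.23 (SE), adjusted p = 0.0142). The other regulatory T cell genes did not all follow it. Of 11 tested, Foxp3 included, 1 was called higher and 2 lower, with 4 fold changes above 0 and 7 below. Their median log2 fold change was -0.32. Their summed CPM, which weighs abundant members most, had a median of 50.3 in carcinoma in situ and 41.6 in hyperplasia.

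Checkpoint genes, the immunotherapy-related part of the data, were split between both directions. Of 25 tested, 4 were higher and 4 lower. Pdcd1 (PD-1) had 0.660, 1.80 and 2.63 CPM in carcinoma in situ, against 0.392, 0.719 and 1.005 CPM in hyperplasia (log2 fold change 1.26 ± 0.31 (SE), adjusted p = 0.00624), and 4 of 6 samples were above every hyperplasia sample. Its ligand gene Cd274 (PD-L1) had 6.73, 10.3 and 12.5 CPM in carcinoma in situ, against 9.74, 11.7 and 15.5 CPM in hyperplasia and was not called (log2 fold change -0.29 ± 0.27 (SE), adjusted p = 0.479). Icosl, the ICOS ligand, was higher without overlap at 19.2, 23.01 and 36.9 CPM in carcinoma in situ, against 14.5, 15.4 and 18.2 CPM in hyperplasia (log2 fold change 0.66 ± 0.13 (SE), adjusted p = 0.000818), and Cd276 and Cd47 were higher by log2 fold changes of 0.42 ± 0.13 and 0.25 ± 0.07 (edgeR adjusted p = 0.026 and 0.00951). Cd276 lost its call without C02, C07 or C10. Lgals9 (galectin-9, a TIM-3 ligand) had 25.6, 28.03 and 36.9 CPM in carcinoma in situ, against 38.95, 60.5 and 72.1 CPM in hyperplasia (log2 fold change -0.97 ± 0.17 (SE), adjusted p = 0.000413). Tnfsf4 (OX40 ligand) had 0.664, 1.16 and 1.46 CPM in carcinoma in situ, against 1.98, 2.63 and 3.29 CPM in hyperplasia (log2 fold change -1.25 ± 0.26 (SE), adjusted p = 0.00166). Tnfrsf18 (GITR) had 1.79, 2.73 and 3.53 CPM in carcinoma in situ, against 3.54, 4.57 and 5.28 CPM in hyperplasia (log2 fold change -0.77 ± 0.18 (SE), adjusted p = 0.00454), all below every hyperplasia sample. Cd200 was lower as well (log2 fold change -0.39 ± 0.13 (SE), adjusted p = 0.0321), but lost its call without C01, C07, C10, A01, A02 or A04. Ctla4 (log2 fold change -0.74 ± 0.28, adjusted p = 0.0592), Havcr2 (log2 fold change 0.65 ± 0.25, adjusted p = 0.0622), Lag3 (log2 fold change 0.14 ± 0.23, adjusted p = 0.71) and Tigit (log2 fold change -0.28 ± 0.36, adjusted p = 0.63) were not called.

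Among myeloid genes, the monocyte chemokine Ccl2 had 2.97, 5.01 and 9.59 CPM in carcinoma in situ, against 1.76, 2.15 and 2.49 CPM in hyperplasia (log2 fold change 1.46 ± 0.30 (SE), adjusted p = 0.00162), without overlap. Cd14, a co-receptor for endotoxin, had 5.77, 10.1 and 19.4 CPM in carcinoma in situ, against 3.22, 4.25 and 6.03 CPM in hyperplasia (log2 fold change 1.34 ± 0.32 (SE), adjusted p = 0.00543). Spp1 (osteopontin) had 2.38, 12.4 and 72.5 CPM in carcinoma in situ, against 1.76, 3.82 and 4.38 CPM in hyperplasia (log2 fold change 2.55 ± 0.61 (SE), adjusted p = 0.00597), a call lost without C07. The macrophage genes Adgre1, Csf1r and Cd68 were not called (log2 fold changes -0.28 ± 0.17, -0.08 ± 0.12 and 0.27 ± 0.15). Of 24 tested genes 5 were higher and 2 lower, and without C07 these counts were 3 and 0. Cd207 (langerin), the marker of Langerhans cells of squamous epithelium, had 3.63, 6.32 and 8.52 CPM in carcinoma in situ, against 1.59, 2.24 and 3.75 CPM in hyperplasia (log2 fold change 1.33 ± 0.26 (SE), adjusted p = 0.000824). Clec10a, a lectin of dermal dendritic cells and macrophages, had 2.87, 3.38 and 4.42 CPM in carcinoma in situ, against 5.34, 6.43 and 9.38 CPM in hyperplasia (log2 fold change -0.92 ± 0.21 (SE), adjusted p = 0.0039).

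Proteases that cut the extracellular matrix were a further group with large increases. Mmp13, collagenase-3 (ENSMUSG00000050578, chr9:7272514-7283331 on the plus strand of GRCm38), had 0.743, 16.8 and 26.4 CPM in carcinoma in situ, against 0.270, 0.594 and 1.29 CPM in hyperplasia, a 23.7-fold difference (log2 fold change 4.56 ± 0.85 (SE), adjusted p = 0.000787). C04, at 0.743 CPM, was the only carcinoma in situ sample inside the hyperplasia range, and C11 had 2.46 CPM. Mmp3 (stromelysin-1) had 6.08, 40.4 and 71.5 CPM in carcinoma in situ, against 3.67, 4.50 and 7.78 CPM in hyperplasia (log2 fold change 2.91 ± 0.51 (SE), adjusted p = 0.0005). Mmp10 (stromelysin-2) had 0.175, 4.52 and 19.2 CPM in carcinoma in situ, against 0, 0.0442 and 0.448 CPM in hyperplasia (log2 fold change 5.98 ± 0.997 (SE), adjusted p = 0.000315). In both, 5 of 6 samples were above every hyperplasia sample. Mmp12, the macrophage elastase, had 2.36, 5.68 and 11.3 CPM in carcinoma in situ, against 0.854, 1.12 and 2.55 CPM in hyperplasia (log2 fold change 2.26 ± 0.30 (SE), adjusted p = 1.65e-05). Adam8, a membrane protease of leukocytes and tumour cells, had 22.1, 25.4 and 37.2 CPM in carcinoma in situ, against 10.4, 12.01 and 14.5 CPM in hyperplasia without overlap (log2 fold change 1.11 ± 0.13 (SE), adjusted p = 2.46e-06). Of 19 tested metalloproteinase and inhibitor genes 11 were called higher and 2 (Timp2 and Timp3, tissue inhibitors) lower. Timp2 lost its call without C02 or C10 and Timp3 in 7 of the 14 leave-one-out fits, and the higher count was 9 to 11 when any 1 sample was left out.

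The promoters of Mmp3, Mmp10 and Mmp13, all in the metalloproteinase cluster of chromosome 9, are shown for the AP-1 motif TGANTCA, the binding site of Fos and Jun factors. The lines hold the last 130 bases before the start on the plus strand (chr9:7445692-7445821, chr9:7502212-7502341 and chr9:7272384-7272513, RefSeq, GRCm38.p6), with matches on either strand in capitals.
Mmp3: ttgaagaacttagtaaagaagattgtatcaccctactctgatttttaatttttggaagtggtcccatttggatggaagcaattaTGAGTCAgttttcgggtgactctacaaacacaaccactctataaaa
Mmp10: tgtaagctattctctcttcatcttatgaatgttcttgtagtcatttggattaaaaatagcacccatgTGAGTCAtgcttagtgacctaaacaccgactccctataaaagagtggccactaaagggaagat
Mmp13: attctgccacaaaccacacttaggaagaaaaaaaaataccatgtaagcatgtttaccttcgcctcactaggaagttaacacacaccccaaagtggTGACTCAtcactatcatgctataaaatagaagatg
The match started 46, 63 and 35 bases before the start of Mmp3, Mmp10 and Mmp13. Over 250 bases, 6 of 15 metalloproteinase list genes with an entry held the motif (40.0%), against 7.82% of all genes in the table. The motif was not particular to this list or to raised genes. It was held by 4 of 16 IL-17 and chemokine genes (25.0%) and 2 of 4 genes of the plasminogen system described below. Among the interferon-stimulated genes, nearly all called lower, 5 of 20 held it (25.0%). The list of AP-1 and immediate early genes had 3 of 20 members called higher at the level of RNA, among them Ier3 (log2 fold change 0.84 ± 0.21 (SE), adjusted p = 0.00807), and Junb was not called (log2 fold change 0.40 ± 0.16 (SE), adjusted p = 0.0772). The count of this list was 1 without C07, A01 or A08 and 1 with a covariate for muscle content.

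The plasminogen system makes plasmin, another matrix-cutting protease, at the cell surface. Plau (urokinase) had 37.8, 69.1 and 109 CPM in carcinoma in situ, against 24.9, 31.1 and 44.9 CPM in hyperplasia (log2 fold change 1.21 ± 0.20 (SE), adjusted p = 0.000238). Its receptor Plaur had 2.75, 5.49 and 9.01 CPM in carcinoma in situ, against 1.42, 2.14 and 3.53 CPM in hyperplasia (log2 fold change 1.31 ± 0.40 (SE), adjusted p = 0.0218). Plaur lost its call without C02 and without C07. Serpine2, an inhibitor of thrombin and urokinase, was lower without overlap, at 63.5, 67.2 and 78.7 CPM in carcinoma in situ, against 78.9, 93.2 and 100.2 CPM in hyperplasia (log2 fold change -0.41 ± 0.10 (SE), adjusted p = 0.00513).

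Attachment genes of the basal layer were higher as well. Lamb3 and Lama3 encode chains of laminin-332, the anchor protein of the epidermal basement membrane, and both were called higher. Lamb3 had 95.4, 157 and 197 CPM in carcinoma in situ, against 70.7, 78.4 and 93.5 CPM in hyperplasia (log2 fold change 0.89 ± 0.17 (SE), adjusted p = 0.000929). Lama3 had 61.9, 134 and 242 CPM in carcinoma in situ, against 46.03, 53.4 and 60.5 CPM in hyperplasia (log2 fold change 1.37 ± 0.30 (SE), adjusted p = 0.00288). Neither gene overlapped between groups. Itga3, a laminin receptor subunit, had 50.7, 82.2 and 98.5 CPM in carcinoma in situ, against 39.3, 44.5 and 48.5 CPM in hyperplasia (log2 fold change 0.85 ± 0.14 (SE), adjusted p = 0.000158). Itga6, another such subunit, had 168, 280.2 and 425 CPM in carcinoma in situ, against 136, 141 and 164 CPM in hyperplasia (log2 fold change 0.96 ± 0.20 (SE), adjusted p = 0.00167). Both were above hyperplasia in every sample. Col7a1, the anchoring fibril collagen, had 109, 182 and 252 CPM in carcinoma in situ, against 73.5, 95.6 and 113 CPM in hyperplasia (log2 fold change 0.93 ± 0.19 (SE), adjusted p = 0.00133). Of 21 tested genes 8 were higher and 1 (Itgb8) lower, with 7 to 12 higher when any 1 sample was left out. Itgb8 lost its call in 9 of those 14 fits.

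Stromal and migration genes were mixed. Tnc (tenascin-C) had 14.9, 68.1 and 103 CPM in carcinoma in situ, against 14.5, 17.5 and 27.2 CPM in hyperplasia (log2 fold change 1.75 ± 0.33 (SE), adjusted p = 0.000877). Col12a1 had 11.1, 40.2 and 118 CPM in carcinoma in situ, against 8.08, 9.94 and 16.3 CPM in hyperplasia (log2 fold change 2.10 ± 0.41 (SE), adjusted p = 0.00105). The transcription factor gene Snai2 had 27.7, 37.4 and 62.3 CPM in carcinoma in situ, against 16.2, 20.9 and 32.9 CPM in hyperplasia (log2 fold change 0.80 ± 0.18 (SE), adjusted p = 0.00395). Inhba, the activin A subunit, had 3.93, 18.2 and 35.2 CPM in carcinoma in situ, against 2.41, 3.32 and 5.46 CPM in hyperplasia (log2 fold change 2.35 ± 0.40 (SE), adjusted p = 0.00034), with C04 at 3.93 CPM inside the hyperplasia range. Dcn (decorin) and Fap, genes of fibroblasts, were lower at 402, 489 and 641 CPM in carcinoma in situ, against 605, 641 and 860.1 CPM in hyperplasia for Dcn (log2 fold change -0.46 ± 0.13 (SE), adjusted p = 0.0151). Fap had 4.28, 5.43 and 8.48 CPM in carcinoma in situ, against 7.49, 9.47 and 12.6 CPM in hyperplasia (log2 fold change -0.74 ± 0.19 (SE), adjusted p = 0.00831). Fibroblast genes did not all fall. Of 26 tested fibroblast and collagen genes 2 were called higher and 4 lower. The log2 fold change was above 0 in 8 and below 0 in 18, with a median of -0.11. The lower count was 2 to 7 when any 1 sample was left out. Col1a1, a collagen gene of fibroblasts, had 17187 counts in carcinoma in situ and 18277 in hyperplasia, the larger group. The epithelial-mesenchymal list held 5 higher and 1 lower call (Zeb1, lost without C02 or C07) among 18 genes, with 3 lower without C04, A06 or A07, and one of the higher ones was Cdh1, the epithelial cadherin. Among ligands of the EGF receptor, Hbegf was higher (log2 fold change 0.93 ± 0.26 (SE), adjusted p = 0.0139) and kept its call in every leave-one-out fit, but not with a covariate for muscle content. With that covariate none of the 14 tested genes of this list was called higher, against 3 without it. Areg (log2 fold change 1.37 ± 0.40, adjusted p = 0.018) lost its call without C10, and Epgn (log2 fold change 1.11 ± 0.38, adjusted p = 0.0394) in 8 of the 14 fits, those without C02, C07, C10, C11, A01, A02, A04 or A08.

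Keratins of the basal layer and of injury were higher in part, and keratins of the upper layers lower in part. Krt17, an injury and tumour keratin, had 858, 2379 and 4422 CPM in carcinoma in situ, against 428, 962 and 1564 CPM in hyperplasia (log2 fold change 1.34 ± 0.31 (SE), adjusted p = 0.00382). Krt5 and Krt14, the keratin pair of basal cells, were called higher by smaller amounts (log2 fold change 0.54 ± 0.15 (SE), adjusted p = 0.0117, and log2 fold change 0.72 ± 0.21 (SE), adjusted p = 0.0189). These were the 3 called among 11 basal and injury keratins, and none was lower. Krt14 lost its call without C02 or C10. Krt76, a keratin of the upper oral epithelium, had 172, 548 and 1196 CPM in carcinoma in situ, against 1123, 1444 and 1954 CPM in hyperplasia (log2 fold change -1.20 ± 0.35 (SE), adjusted p = 0.0185). Krt24 had 84.8, 117 and 189.6 CPM in carcinoma in situ, against 158, 228 and 336 CPM in hyperplasia (log2 fold change -0.91 ± 0.21 (SE), adjusted p = 0.00411). 4 of 6 carcinoma in situ samples were below every hyperplasia sample for Krt76. Of 9 suprabasal keratins 4 were lower (also Krt78 and Krt80) and 1 was higher (Krt1, log2 fold change 1.26 ± 0.43, adjusted p = 0.0406). The lower count was 1 without C02 and 2 without C07, C10 or C11, Krt76 itself lost its call without C02, and Krt78, Krt80 and Krt1 lost their calls in 4, 9 and 10 of the 14 leave-one-out fits.

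Crnn (cornulin), a marker of oral squamous differentiation, had 25.5, 57.4 and 134 CPM in carcinoma in situ, against 149, 193 and 288 CPM in hyperplasia (log2 fold change -1.44 ± 0.37 (SE), adjusted p = 0.00922), without overlap. Rptn (repetin) had 1800.0, 2416 and 4893 CPM in carcinoma in situ, against 3888, 4898 and 5330.0 CPM in hyperplasia (log2 fold change -0.78 ± 0.22, adjusted p = 0.0144). Rptn lost its call without C02. In contrast 6 of 12 tested Sprr2 genes were higher, among them Sprr2i with 191, 392 and 675 CPM in carcinoma in situ, against 21.5, 39.9 and 335 CPM in hyperplasia (log2 fold change 2.04 ± 0.50 (SE), adjusted p = 0.00702). The Sprr2 genes are near-identical copies, so their separate counts are uncertain. The cornified envelope list as a whole had 6 higher and 3 lower calls among 37 genes, and the count higher was 3 without C07 and 12 without A05, the hyperplasia sample with the highest Sprr2i (335 CPM). The lower count was 1 without C02 and 6 without C01.

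Regulators of squamous identity did not move as a set. Of 28 tested, 7 were called higher and 1 lower, with a median log2 fold change of 0.0. The log2 fold change was above 0 in 14 and below 0 in 14. Trp63, the master gene of basal squamous cells, had 209.7, 307 and 324 CPM in carcinoma in situ, against 141, 189.6 and 253 CPM in hyperplasia (log2 fold change 0.56 ± 0.13 (SE), adjusted p = 0.00348). Elf3 had 16.1, 20.8 and 36.99 CPM in carcinoma in situ, against 9.87, 12.7 and 16.1 CPM in hyperplasia (log2 fold change 0.89 ± 0.20 (SE), adjusted p = 0.00376). The groups of Elf3 only just failed to overlap, its lowest carcinoma in situ and highest hyperplasia samples both rounding to 16.1 CPM. The desmosomal cadherins went opposite ways, Dsg3, which lies deeper in skin, higher at 362, 455 and 689 CPM in carcinoma in situ, against 237, 288 and 461 CPM in hyperplasia (log2 fold change 0.65 ± 0.17 (SE), adjusted p = 0.00922), and Dsg1a, which lies further up in skin, lower at 382, 509 and 635 CPM in carcinoma in situ, against 580.0, 744 and 919 CPM in hyperplasia (log2 fold change -0.53 ± 0.14 (SE), adjusted p = 0.0098). Klk8 and Klk13, kallikrein proteases of squamous epithelium, were higher (log2 fold change 0.97 ± 0.18 (SE), adjusted p = 0.000673, and log2 fold change 0.65 ± 0.14 (SE), adjusted p = 0.00177).

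The interferon-stimulated genes held more lower calls than any other of the 60 lists. Of 29 tested genes 28 were called lower and 0 higher, with a median log2 fold change of -1.57, and the exception was Ifi27. The groups did not overlap in 23 of them, and the lower count was 26 to 28 when any 1 sample was left out. Isg15, a ubiquitin-like antiviral protein (ENSMUSG00000035692, chr4:156199424-156200818 on the minus strand of GRCm38), had 6.73, 9.26 and 11.5 CPM in carcinoma in situ, against 25.9, 57.97 and 63.7 CPM in hyperplasia (log2 fold change -2.51 ± 0.37 (SE), adjusted p = 0.000103). The highest carcinoma in situ sample was below the lowest hyperplasia sample. Ifit1, which binds foreign RNA, had 3.25, 5.89 and 7.91 CPM in carcinoma in situ, against 17.4, 30.5 and 43.1 CPM in hyperplasia (log2 fold change -2.41 ± 0.43 (SE), adjusted p = 0.000551). The 2'-5' oligoadenylate synthetase genes Oas2 and Oas3, RNA sensors of the RNase L pathway, had 4.69, 5.31 and 12.5 CPM in carcinoma in situ, against 17.2, 34.8 and 37.4 CPM in hyperplasia for Oas2 (log2 fold change -2.19 ± 0.35 (SE), adjusted p = 0.000171). Oas3 had 2.45, 3.76 and 8.51 CPM in carcinoma in situ, against 10.02, 22.5 and 26.6 CPM in hyperplasia (log2 fold change -2.26 ± 0.44 (SE), adjusted p = 0.00105). Irf7, the factor that amplifies type I interferon, had 7.52, 8.77 and 13.4 CPM in carcinoma in situ, against 17.7, 36.7 and 41.3 CPM in hyperplasia (log2 fold change -1.90 ± 0.28 (SE), adjusted p = 7.52e-05). Usp18, which ends interferon signalling, had 2.47, 4.44 and 6.13 CPM in carcinoma in situ, against 8.003, 17.4 and 21.2 CPM in hyperplasia (log2 fold change -1.94 ± 0.38 (SE), adjusted p = 0.00104). Apol9a and Apol9b, the largest decreases among called genes of at least 10 CPM, are close copies and had 1.95, 3.12 and 3.98 CPM in carcinoma in situ, against 10.1, 19.98 and 25.3 CPM in hyperplasia for Apol9a (log2 fold change -2.71 ± 0.38 (SE), adjusted p = 4.6e-05). Apol9b had 1.54, 2.07 and 3.46 CPM in carcinoma in situ, against 7.55, 13.8 and 16.6 CPM in hyperplasia (log2 fold change -2.61 ± 0.35 (SE), adjusted p = 1.82e-05).

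A05 had the lowest list mean of the hyperplasia samples, with 25.9 CPM of Isg15 and 30.5 CPM of Oasl2. Oasl2 had 10.8, 13.5 and 25.4 CPM in carcinoma in situ, against 30.5, 72.1 and 83.97 CPM in hyperplasia (log2 fold change -2.10 ± 0.38 (SE), adjusted p = 0.000635). The mean log2 CPM of the list ranged over 2.395 to 3.20 in carcinoma in situ and over 3.62 to 4.59 in hyperplasia, without overlap, while that of the IL-17 and chemokine list ranged over 0.23 to 2.399 in carcinoma in situ and -0.92 to 0.32 in hyperplasia, with C04 below A05 and A06.

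**Figure D3:**
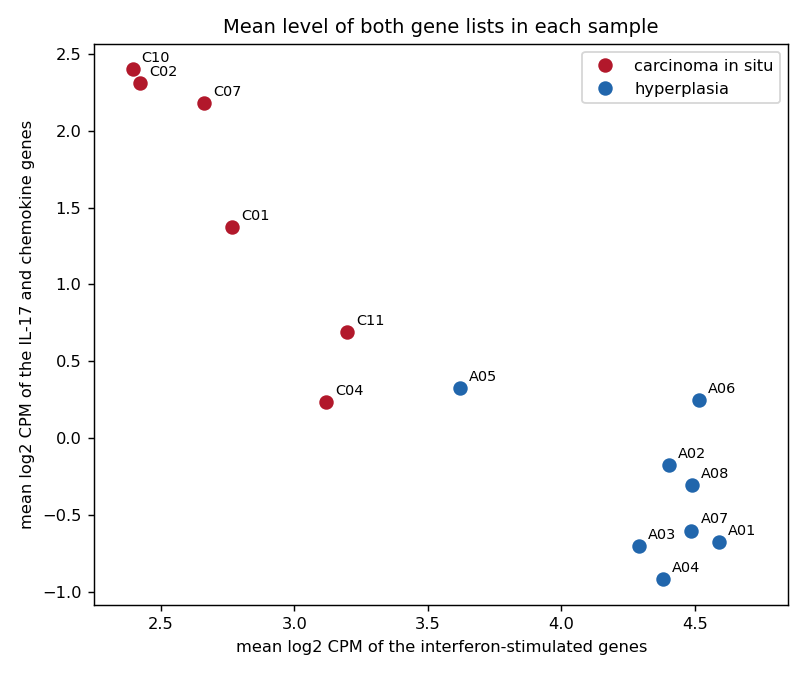
Each point is 1 sample, carcinoma in situ in red and hyperplasia in blue, placed by the mean log2 CPM of the 29 interferon-stimulated genes (horizontal) and of the 24 IL-17 and chemokine genes (vertical). Samples C04 and A05 lie nearest to the other group.

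Promoters of Isg15 and Ifit1 are shown for the interferon-stimulated response element, searched on both strands as GAAA, any 2 bases, GAAA. This motif was chosen after the values were seen. The lines give the last 130 bases before the start in the direction of the gene, Isg15 on the minus strand (chr4:156200819-156200948) and Ifit1 on the plus strand (chr19:34640759-34640888), from RefSeq on GRCm38.p6, with matches in capitals.
Isg15: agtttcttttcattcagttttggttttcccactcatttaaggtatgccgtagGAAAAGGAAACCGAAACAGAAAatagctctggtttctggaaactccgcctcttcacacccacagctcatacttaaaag
Ifit1: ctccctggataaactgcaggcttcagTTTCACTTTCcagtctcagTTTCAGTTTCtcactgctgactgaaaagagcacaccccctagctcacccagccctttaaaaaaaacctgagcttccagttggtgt
Isg15 held 3 matches, starting 78 to 66 bases before the start, and Ifit1 2 matches, starting 104 and 85 bases before it. Over 250 bases, 10 of 20 listed genes with an entry held the motif, against 3.46% of all genes in the table.

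Antigen presentation by MHC class I, which interferon also raises, was lower in part. Tap1, the peptide transporter, had 33.3, 39.3 and 51.7 CPM in carcinoma in situ, against 53.6, 80.7 and 89.6 CPM in hyperplasia (log2 fold change -0.95 ± 0.18 (SE), adjusted p = 0.000929). B2m, the light chain of all class I molecules, had 323, 411 and 522 CPM in carcinoma in situ, against 548, 705 and 759 CPM in hyperplasia (log2 fold change -0.66 ± 0.17 (SE), adjusted p = 0.00829), both without overlap. The non-classical gene H2-Q6, which has near copies so that its counts are uncertain, had 14.5, 21.8 and 25.5 CPM in carcinoma in situ, against 29.8, 52.4 and 59.8 CPM in hyperplasia (log2 fold change -1.19 ± 0.28 (SE), adjusted p = 0.00506). In all 9 of 20 were lower and 1 higher, but the lower count was 4 without C01 and 5 without C02, C07, C10, A01 or A04. Of 11 class II genes 1 was called higher, and H2-Ab1 had 82.2, 123 and 142 CPM in carcinoma in situ, against 88.8, 107 and 136 CPM in hyperplasia (log2 fold change 0.11 ± 0.16 (SE), adjusted p = 0.66). The interferon-gamma list, with the CXCR3 chemokines, had 2 lower and 1 higher among 17. Ifng itself was too low to test, with 11 counts in carcinoma in situ and 12 in hyperplasia over all samples.

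Targets of p53, the factor that answers DNA damage, were lower. Of 25 tested 13 were called lower and 0 higher (median log2 fold change -0.26), and 9 to 13 were lower when any 1 sample was left out. Cdkn1a (p21), the cell cycle inhibitor, had 194, 271 and 318 CPM in carcinoma in situ, against 316, 401 and 509 CPM in hyperplasia (log2 fold change -0.62 ± 0.11 (SE), adjusted p = 0.000501). For Cdkn1a, 5 of 6 samples were below every hyperplasia sample. Polk, a polymerase that copies across bulky DNA adducts, had 6.002, 7.25 and 8.52 CPM in carcinoma in situ, against 10.7, 12.1 and 14.3 CPM in hyperplasia (log2 fold change -0.78 ± 0.10 (SE), adjusted p = 1.25e-05). Psrc1, a microtubule regulator, had 7.99, 9.09 and 12.5 CPM in carcinoma in situ, against 14.7, 19.4 and 22.5 CPM in hyperplasia (log2 fold change -0.94 ± 0.12 (SE), adjusted p = 4.58e-06). Ercc5, the nuclease of nucleotide excision repair, fell by a smaller amount (log2 fold change -0.38 ± 0.07 (SE), adjusted p = 0.000345). Polk, Psrc1 and Ercc5 were below hyperplasia in every sample. Trp53 itself was not called, at 52.3, 59.05 and 64.7 CPM in carcinoma in situ, against 46.9, 52.6 and 56.9 CPM in hyperplasia (log2 fold change 0.18 ± 0.07 (SE), adjusted p = 0.0693). The separate list of DNA repair and checkpoint genes did not go one way, with 2 higher and 2 lower among 28 (median log2 fold change -0.01), and 0 higher without C02. Mgmt, one of its lower genes, which removes alkyl groups from guanine, had 3.68, 5.17 and 6.44 CPM in carcinoma in situ, against 9.07, 9.63 and 10.4 CPM in hyperplasia (log2 fold change -0.91 ± 0.13 (SE), adjusted p = 3.44e-05), without overlap. Rev1, a translesion polymerase outside both lists, had 19.4, 21.4 and 24.8 CPM in carcinoma in situ, against 28.7, 30.5 and 32.4 CPM in hyperplasia (log2 fold change -0.49 ± 0.06, adjusted p = 3.02e-06).

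**Figure D4:**
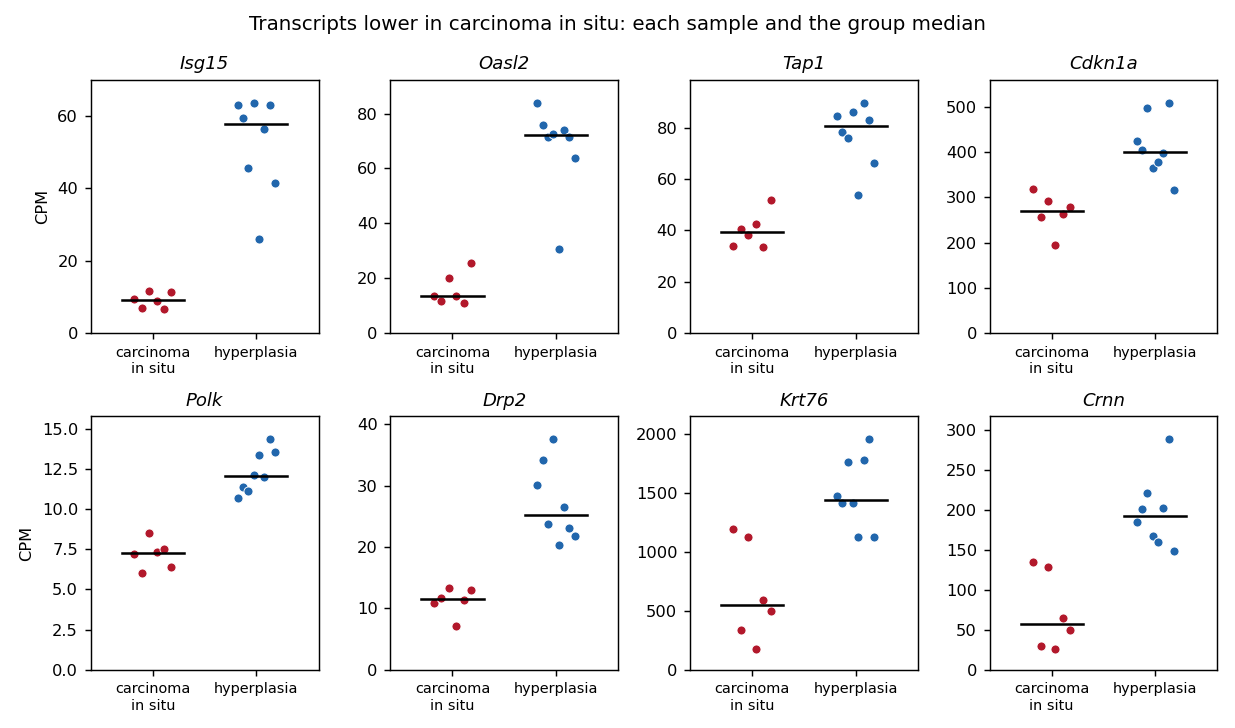
CPM on a linear scale of 8 transcripts in each carcinoma in situ sample (red, left) and each hyperplasia sample (blue, right), with the group median as a line. The groups did not overlap for Isg15, Oasl2, Tap1, Polk, Drp2 or Crnn, while 1 carcinoma in situ sample of Cdkn1a and 2 of Krt76 reached the hyperplasia range.

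Proliferation genes were mostly not called. None of the 30 mitosis genes was called by edgeR. At an unadjusted p under 0.05, 0 of them were higher and 0 lower, and DESeq2 called 0 higher and 0 lower. Of 30 replication genes 1 (Gins4, log2 fold change 0.23 ± 0.08, adjusted p = 0.0488) was higher, a call lost in 9 of the 14 leave-one-out fits (without C02, C07, C10, A01, A02, A03, A04, A05 or A07). Mki67 had 86.3, 118 and 151 CPM in carcinoma in situ, against 90.2, 119.9 and 133 CPM in hyperplasia (log2 fold change -0.00 ± 0.13 (SE), adjusted p = 0.999). Of 21 tested G1 cyclins, kinases and their inhibitors, 3 were called higher and 5 lower. Cdkn2a, the locus of p16 and p19, had 3.23, 11.2 and 18.5 CPM in carcinoma in situ, against 1.27, 3.42 and 4.11 CPM in hyperplasia (log2 fold change 1.71 ± 0.30 (SE), adjusted p = 0.000345). Its neighbour Cdkn2b had 12.3, 14.9 and 16.6 CPM in carcinoma in situ, against 7.64, 11.2 and 13.1 CPM in hyperplasia (log2 fold change 0.46 ± 0.10 (SE), adjusted p = 0.00203). Rb1 was lower in every sample, at 33.4, 41.7 and 42.8 CPM in carcinoma in situ, against 44.5, 46.02 and 52.9 CPM in hyperplasia (log2 fold change -0.23 ± 0.06 (SE), adjusted p = 0.00822), and so was the cyclin gene Ccnd2 (log2 fold change -0.46 ± 0.09 (SE), adjusted p = 0.00116).

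Among 27 genes known as drivers of oral squamous carcinoma, 2 were higher (Cdkn2a and Tgfbr2) and 2 lower (Notch1 and Rb1). Notch1, a tumour suppressor in squamous epithelium that promotes differentiation, had 74.5, 93.8 and 122 CPM in carcinoma in situ, against 113, 144 and 153 CPM in hyperplasia (log2 fold change -0.52 ± 0.12 (SE), adjusted p = 0.0043), and its ligand gene Jag1 was higher at 59.7, 94.9 and 123 CPM in carcinoma in situ, against 54.8, 59.5 and 66.99 CPM in hyperplasia (log2 fold change 0.67 ± 0.14 (SE), adjusted p = 0.00198). Notch1 was below every hyperplasia sample in 4 of 6 samples, and Jag1 above in 5. Egfr, Pik3ca, Hras and Fat1 were not called, with log2 fold changes of 0.09 ± 0.07, -0.06 ± 0.06, 0.20 ± 0.08 and 0.14 ± 0.16. RNA levels say nothing about mutations in these genes.

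Myelin and vessel genes were lower. Drp2, which links the myelin sheath of Schwann cells to the cell's skeleton, had 7.18, 11.5 and 13.3 CPM in carcinoma in situ, against 20.4, 25.2 and 37.5 CPM in hyperplasia (log2 fold change -1.28 ± 0.19 (SE), adjusted p = 9.85e-05). Prx, of the same complex, was lower too (log2 fold change -1.07 ± 0.18 (SE), adjusted p = 0.00024), and the groups overlapped for neither gene. Of 15 tested Schwann cell genes 11 were lower and 0 higher, with a median of -0.96, and the count was 11 in every leave-one-out fit. Sox10, which also marks Schwann cells that do not make myelin, was not called (3.37, 5.83 and 9.09 CPM in carcinoma in situ, against 5.65, 8.61 and 16.5 CPM in hyperplasia, log2 fold change -0.58 ± 0.29, adjusted p = 0.156). Endothelial genes were lower in 11 of 20 cases. Tek (the angiopoietin receptor) had 16.6, 23.7 and 32.1 CPM in carcinoma in situ, against 32.4, 36.5 and 48.1 CPM in hyperplasia (log2 fold change -0.69 ± 0.16 (SE), adjusted p = 0.00511). Pecam1 had 54.99, 67.5 and 81.2 CPM in carcinoma in situ, against 74.4, 90.6 and 110.4 CPM in hyperplasia (log2 fold change -0.40 ± 0.11 (SE), adjusted p = 0.00922). That count was 4 without C07 or C10, 5 without A01 or A04, 6 without C01, 7 without A02, and 4 with a covariate for muscle content.

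A minority of muscle genes was called, in both directions, but most fold changes were below 0 (26 below and 5 above, median log2 fold change -0.31). Myh4, the myosin of the fastest fibres, had 3781, 6678 and 10890.0 CPM in carcinoma in situ, against 8853, 10710.0 and 16250.0 CPM in hyperplasia (log2 fold change -0.68 ± 0.22 (SE), adjusted p = 0.028). Pvalb, a calcium buffer of fast fibres, had 102, 179 and 349 CPM in carcinoma in situ, against 214, 368 and 744 CPM in hyperplasia (log2 fold change -1.02 ± 0.28 (SE), adjusted p = 0.0134). Tnnc1, a troponin gene of slow fibres, was low throughout and higher at 0.0417, 0.539 and 1.58 CPM in carcinoma in situ, against 0, 0.0497 and 0.294 CPM in hyperplasia (log2 fold change 2.96 ± 0.62 (SE), adjusted p = 0.00195). Tnni1, likewise of slow fibres, had 0.612, 1.84 and 3.65 CPM in carcinoma in situ, against 0.554, 0.949 and 1.27 CPM in hyperplasia (log2 fold change 1.02 ± 0.32 (SE), adjusted p = 0.0254). Other slow-fibre genes were too low to test, Myh7 with 12 counts over the 6 carcinoma in situ samples and 18 over the 8 hyperplasia samples, and Myl2 with 11 in carcinoma in situ and 19 in hyperplasia. Myh4 lost its call without C02, C07, C10, A01 or A04, and Tnni1 without C07, C10 or A01. Of 31 muscle genes 3 were higher and 6 lower, and the lower count ran from 1 (without C02, C07, C10, A01 or A04) to 11 (without C04). The higher count was 1 without C07. Mitochondrially encoded transcripts were lower in 6 of 11 cases, mt-Nd1 with 4828, 6567 and 7786 CPM in carcinoma in situ, against 6741, 8922 and 10760.0 CPM in hyperplasia (log2 fold change -0.51 ± 0.13 (SE), adjusted p = 0.00922), and in 2 without C07. All 31 nuclear genes of oxidative phosphorylation had fold changes below 0 (median -0.18), but none was called by edgeR, 6 were lower at an unadjusted p under 0.05, and DESeq2 and limma-voom called 3 lower each.

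Genes of glucose uptake, serine synthesis and sterol synthesis were among the increases. Slc2a1 (GLUT1), the main glucose importer of epithelium, had 144, 213 and 465 CPM in carcinoma in situ, against 68.7, 93.2 and 121 CPM in hyperplasia (log2 fold change 1.395 ± 0.27 (SE), adjusted p = 0.000936), without overlap. Hif1a, the hypoxia factor, had 169, 359 and 439 CPM in carcinoma in situ, against 118, 140.0 and 222 CPM in hyperplasia (log2 fold change 1.22 ± 0.21, adjusted p = 0.000345). Car12, a carbonic anhydrase, had 161, 232 and 278 CPM in carcinoma in situ, against 114, 119.7 and 148 CPM in hyperplasia (log2 fold change 0.89 ± 0.13 (SE), adjusted p = 5.54e-05). Of 30 glycolysis and hypoxia genes 9 were higher and 0 lower. Phgdh, the first enzyme of serine synthesis, had 90.2, 100.2 and 109 CPM in carcinoma in situ, against 57.7, 73.3 and 78.6 CPM in hyperplasia (log2 fold change 0.50 ± 0.08 (SE), adjusted p = 0.000149). The amino acid transporter gene Slc7a5 had 88.95, 121 and 138 CPM in carcinoma in situ, against 45.3, 75.6 and 104 CPM in hyperplasia (log2 fold change 0.66 ± 0.13 (SE), adjusted p = 0.000936). Msmo1, a sterol oxidase, had 88.5, 108 and 135 CPM in carcinoma in situ, against 58.4, 69.2 and 79.7 CPM in hyperplasia (log2 fold change 0.68 ± 0.10 (SE), adjusted p = 9.93e-05), and 13 of 22 sterol and fatty acid synthesis genes were higher and 0 lower (9 to 16 higher in leave-one-out fits).

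All 26 tested cytosolic ribosomal protein genes were higher, by a median log2 fold change of 0.43, and 23 to 26 when any 1 sample was left out. Rpl3 had 583, 724 and 921 CPM in carcinoma in situ, against 448, 509 and 555 CPM in hyperplasia (log2 fold change 0.53 ± 0.10 (SE), adjusted p = 0.000514), without overlap. The chaperone gene Hspa5 (BiP) of the endoplasmic reticulum had 470.3, 639.8 and 771 CPM in carcinoma in situ, against 304, 323 and 455 CPM in hyperplasia (log2 fold change 0.90 ± 0.13 (SE), adjusted p = 5.54e-05). NRF2 targets, genes of the oxidant defence, were higher in 9 of 31 cases. Ugdh had 53.1, 67.1 and 113 CPM in carcinoma in situ, against 43.9, 47.8 and 54.9 CPM in hyperplasia (log2 fold change 0.55 ± 0.12 (SE), adjusted p = 0.0022). Prdx1 had 586, 828 and 2178 CPM in carcinoma in situ, against 525.7, 595 and 762 CPM in hyperplasia (log2 fold change 0.73 ± 0.18 (SE), adjusted p = 0.00728). The count was 2 without C02, which held 2178 CPM of Prdx1. Ptges, the prostaglandin E synthase, had 45.02, 59.4 and 92.6 CPM in carcinoma in situ, against 17.6, 28.4 and 37.5 CPM in hyperplasia (log2 fold change 1.17 ± 0.17 (SE), adjusted p = 4.87e-05), without overlap. Ptgs2 (COX-2) had 4.37, 20.2 and 112 CPM in carcinoma in situ, against 5.66, 7.91 and 14.3 CPM in hyperplasia (log2 fold change 1.94 ± 0.53, adjusted p = 0.0139), with C04 at 4.37 CPM below every hyperplasia sample. Ptgs2 lost its call without C02. Cyp1a1, an enzyme that activates and clears aromatic carcinogens, had 0.183, 0.947 and 2.59 CPM in carcinoma in situ, against 2.10, 4.47 and 7.03 CPM in hyperplasia (log2 fold change -2.08 ± 0.46 (SE), adjusted p = 0.0027).

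Some of the smallest adjusted p-values belonged to genes outside these lists. Among increases Sfrp1, a secreted Wnt modulator, had 41.8, 48.2 and 56.4 CPM in carcinoma in situ, against 20.1, 23.97 and 35.5 CPM in hyperplasia (log2 fold change 0.93 ± 0.11 (SE), adjusted p = 1.5e-06). Sema4b, a semaphorin, had 45.9, 61.03 and 69.9 CPM in carcinoma in situ, against 30.5, 34.9 and 36.4 CPM in hyperplasia (log2 fold change 0.81 ± 0.09 (SE), adjusted p = 1.5e-06). Pappa, a protease that frees insulin-like growth factors, had 40.7, 65.5 and 81.03 CPM in carcinoma in situ, against 21.4, 26.6 and 36.2 CPM in hyperplasia (log2 fold change 1.19 ± 0.14 (SE), adjusted p = 2.59e-06). Among decreases Cpt1c, a brain-type carnitine palmitoyltransferase and the smallest p of all genes, had 6.04, 7.79 and 8.84 CPM in carcinoma in situ, against 18.5, 22.1 and 26.2 CPM in hyperplasia (log2 fold change -1.51 ± 0.11 (SE), adjusted p = 4.69e-10). Mcam, a cell adhesion molecule of vessels and tumour cells, had 26.3, 29.9 and 35.1 CPM in carcinoma in situ, against 55.6, 61.4 and 68.4 CPM in hyperplasia (log2 fold change -1.04 ± 0.10 (SE), adjusted p = 1.75e-07). Igsf9b, an adhesion molecule of synapses, had 1.099, 2.93 and 4.02 CPM in carcinoma in situ, against 8.24, 10.7 and 12.5 CPM in hyperplasia (log2 fold change -1.86 ± 0.21 (SE), adjusted p = 1.5e-06). Fzd4, a Wnt and norrin receptor, had 41.7, 54.3 and 66.5 CPM in carcinoma in situ, against 75.8, 107 and 120.0 CPM in hyperplasia (log2 fold change -0.88 ± 0.11 (SE), adjusted p = 7.07e-06). None of these groups overlapped.

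Several of the decreases were peaks of the hyperplasia group. Cpt1c averaged 4.86 ± 0.364 CPM in normal samples, 21.98 ± 2.60 CPM in hyperplasia, 7.59 ± 0.599 CPM in dysplasia, 7.69 ± 0.981 CPM in carcinoma in situ, and 7.28 ± 1.56 CPM in invasive carcinoma (SD, n = 3, 8, 7, 6 and 6). Mcam averaged 24.9, 61.9, 27.00, 30.2 and 29.3 CPM over the same stages, Igsf9b 2.46, 10.51, 3.40, 2.89 and 3.46 CPM, Psrc1 7.39, 18.8, 9.49, 9.75 and 9.96 CPM, Mgmt 5.61, 9.68, 4.853, 5.13 and 6.44 CPM and Isg15 21.3, 52.4, 16.1, 9.22 and 7.09 CPM. In the same fit, dysplasia was also lower than hyperplasia in Cpt1c (log2 fold change -1.53 ± 0.10, adjusted p = 9e-11), Mcam (log2 fold change -1.20 ± 0.10, adjusted p = 3.5e-09), Psrc1 (log2 fold change -0.98 ± 0.11, adjusted p = 1.93e-06), Mgmt (log2 fold change -0.995 ± 0.12, adjusted p = 5.61e-06) and Isg15 (log2 fold change -1.71 ± 0.34, adjusted p = 0.00342). These contrasts share the hyperplasia samples with the main one, so they are no separate evidence. Against dysplasia, carcinoma in situ did not pass the threshold in Cpt1c (log2 fold change 0.02 ± 0.11, adjusted p = 0.941) or in Isg15 (log2 fold change -0.80 ± 0.36, adjusted p = 0.182).

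Several inflammation and protease genes differed between carcinoma in situ and dysplasia. Carcinoma in situ was higher than dysplasia in Mmp13 (log2 fold change 3.67 ± 0.83, adjusted p = 0.0168), Saa3 (log2 fold change 4.99 ± 0.90, adjusted p = 0.00832) and Il1b (log2 fold change 2.75 ± 0.52, adjusted p = 0.00832). Dysplasia did not pass against hyperplasia in Mmp13 (log2 fold change 0.89 ± 0.89, adjusted p = 0.597) or Il1b (log2 fold change 0.19 ± 0.50, adjusted p = 0.864). Between carcinoma in situ and dysplasia 528 genes (2.99%) were called higher and 436 (2.47%) lower. Between dysplasia and hyperplasia the numbers were 527 (2.99%) and 387 (2.19%). Invasive carcinoma and carcinoma in situ differed in 0 genes in either direction (0.00%) by edgeR, the one tool run on this contrast, with 1259 genes at an unadjusted p under 0.05. Drp2 averaged 34.1, 27.2, 18.5, 11.2 and 13.1 CPM over the 5 stages in order. Carcinoma in situ was lower than dysplasia in Drp2 (log2 fold change -0.72 ± 0.20, adjusted p = 0.0316), and dysplasia did not pass the threshold against hyperplasia (log2 fold change -0.56 ± 0.18, adjusted p = 0.0682).

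**Figure D5:**
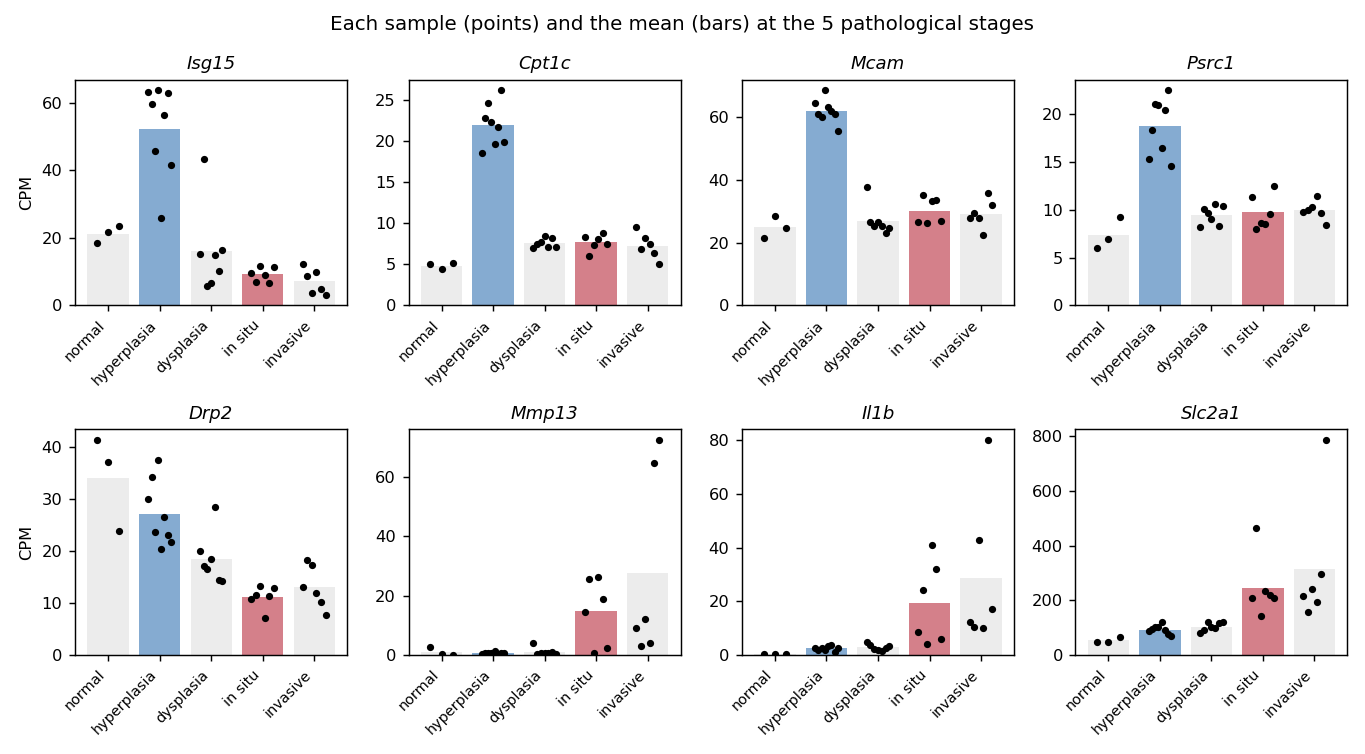
CPM of 8 transcripts at the 5 pathological stages in their order, points for samples and bars for means, with hyperplasia in blue and carcinoma in situ in red. Isg15, Cpt1c, Mcam and Psrc1 had their highest mean in hyperplasia, and Drp2 had its 3 lowest means from dysplasia on. Mmp13, Il1b and Slc2a1 had their 2 highest means in carcinoma in situ and invasive carcinoma.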

How the data were processed

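The authors deposited a table of read counts per gene for 30 samples, which are raw counts with no normalization. Per the submitters' processing notes, cutadapt 2.4, STAR 2.7.2a and the GRCm38 build were used. The counting tool, strand setting and annotation are not given in the sources used here. Of 55487 identifiers 55227 (99.53%) matched GENCODE M21, which gave names and coordinates.

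Counts were tested with edgeR 4.0.16 (R 4.3.3): expression filter, TMM scaling, 1 mean per stage over all 30 samples, robust quasi-likelihood F test of carcinoma in situ minus hyperplasia, two-sided, Benjamini-Hochberg adjustment over 17638 genes and a threshold of 0.05. On simulated counts the test recovered 53.5%, 78% and 95% of 200 genes changed 1.5-fold, 2-fold and 4-fold. DESeq2 1.42.0 and limma 3.58.1 were alternatives. Figures were drawn in matplotlib 3.10.9, and tables joined in pandas 2.3.3 (Python 3.11.15). The common dispersion was 0.0576.

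Genes and lists were chosen with earlier results of these data known. The rule for named genes took called protein-coding genes averaging 10 CPM or more in one of the groups, the 12 largest changes and 10 smallest adjusted p each way, up to 4 members of each described list, the checkpoint and driver lists and cell type markers. Some genes that meet the rule are not reported here. Asprv1, Cdh1, Cxcl2, Cxcl3, Ifi27, Il17c, Il18, Il1f9, Itga6, Itgb8, Krt1, Lama3, Mki67, Plaur, Timp2, Timp3, Zeb1, the interferon motif and the contrast of dysplasia with hyperplasia were chosen after their values were seen. Promoters came from a RefSeq table of GRCm38.p6. Sample numbers that both groups share (1, 2, 4 and 7) were not used to pair the samples in the main fit.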

Additional observations from a re-analysis of the deposited data

Results flagged for a closer look

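A single sample stood far from the rest of its group, by its gap to the nearest sample relative to the group's range, in 36 of 322 gene and group combinations. The rule uses Dixon's 95% critical value, which by its construction flags about 1 in 20 groups of normally distributed values by chance. That rate was not measured on these data, and the genes are not independent of one another.

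Sample C02 was the highest carcinoma in situ sample with 154 CPM of Fat1 (next 82.2 CPM), 36.9 CPM of Icosl (next 25.3 CPM), 4.99 CPM of Il17a (next 1.78 CPM), 2178 CPM of Prdx1 (next 1024 CPM) and 112 CPM of Ptgs2 (next 34.3 CPM). Sample C02 was also the highest carcinoma in situ sample with 465 CPM of Slc2a1 (next 233 CPM), 25.4 CPM of Trdc (next 7.42 CPM) and 113 CPM of Ugdh (next 70.9 CPM). Sample C04 was the highest carcinoma in situ sample with 29.9 CPM of Ercc5 (next 26.9 CPM) and 140.0 CPM of Timp2 (next 109 CPM). Sample C04 was the lowest carcinoma in situ sample with 209.7 CPM of Trp63 (next 288 CPM). Sample C07 was the highest carcinoma in situ sample with 62.3 CPM of Snai2 (next 39.9 CPM) and 72.5 CPM of Spp1 (next 23.9 CPM). Sample A01 was the highest hyperplasia sample with 9.38 CPM of Clec10a (next 7.18 CPM), 860.1 CPM of Dcn (next 695 CPM) and 182 CPM of Timp2 (next 142 CPM). Sample A02 was the lowest hyperplasia sample with 3.54 CPM of Tnfrsf18 (next 4.48 CPM). Sample A04 was the highest hyperplasia sample with 744 CPM of Pvalb (next 426 CPM). Sample A05 was the highest hyperplasia sample with 75.9 CPM of Defb3 (next 36.1 CPM), 222 CPM of Hif1a (next 144 CPM), 0.616 CPM of Il17f (next 0.272 CPM), 98.1 CPM of Il1rn (next 60.0 CPM) and 1.29 CPM of Mmp13 (next 0.653 CPM). Sample A05 was also the highest hyperplasia sample with 7.78 CPM of Mmp3 (next 4.86 CPM), 44.9 CPM of Plau (next 33.2 CPM), 553 CPM of S100a8 (next 155 CPM), 798 CPM of S100a9 (next 224 CPM) and 335 CPM of Sprr2i (next 152 CPM). Sample A05 was the lowest hyperplasia sample with 10.1 CPM of Apol9a (next 18.7 CPM), 7.55 CPM of Apol9b (next 12.7 CPM), 17.7 CPM of Irf7 (next 33.2 CPM), 30.5 CPM of Oasl2 (next 63.8 CPM) and 8.003 CPM of Usp18 (next 15.0 CPM). Sample A06 was the highest hyperplasia sample with 1.57 CPM of Cd3e (next 0.950 CPM). Sample A08 was the highest hyperplasia sample with 455 CPM of Hspa5 (next 326 CPM) and 16.5 CPM of Sox10 (next 9.05 CPM).

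Sample A05 accounted for 15 of the 36. It was lowest for 5 genes, among them Irf7 and Oasl2, and highest for 10, among them S100a8, S100a9 and Mmp3. Sample C02 accounted for 8.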

How the results depend on the processing

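The main counts were 1872 genes higher and 1479 lower. Against a fold of 1.5 (glmTreat) they were 86 and 58, at an adjusted p under 0.01 798 and 482, and with a skeletal muscle score as covariate 1223 and 1031. Leaving out 1 sample at a time gave 1105 to 2764 higher and 751 to 2155 lower. No expression filter gave 1267 and 1030, DESeq2 2104 and 1811, limma-voom 2071 and 1944, a salivary gland score as covariate 2001 and 1553, and only the 2 groups 1790 and 1749. With the replicate number as a block the counts were 1614 higher and 1647 lower. The deviations of same-numbered samples from their group means had correlations of -0.036, 0.018, -0.155 and 0.307, the last for C07 with A07. So few values cannot decide whether the numbers carry a pairing.

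Of 137 called genes named in the text, glmTreat lost 93, the covariate for muscle 17, the block 17, the analysis with no filter 8, the fit of only the 2 groups 4, and DESeq2 and the salivary covariate 0 each. A gene not tested in an alternative was not counted as lost there. Il17a, Clec4e and Tnnc1 were tested in 24 of the 25 alternatives. None reversed. The muscle covariate lost Areg, Cd200, Cd276, Epgn, Foxp3, Gins4, Hbegf, Il18, Il1f9, Itgb8, Krt1, Krt14, Ptgs2, S100a9, Timp2, Timp3 and Tnni1. With it the MHC class I list had 4 lower calls, the NRF2 list 5 higher and the cornified envelope list 3 higher, against 9, 9 and 6. With only the 2 groups the neutrophil list had 6 higher calls among 9 tested, against 10 among 19, and the interferon-gamma list 6 lower calls, against 2. Without C04 the driver list had 5 higher calls, against 2. Some log2 fold changes of genes not called changed sign. With the replicate block Cd3e was at -0.0298, Cd8a at -0.199, H2-Ab1 at -0.155 and Lag3 at -0.0414. Fat1 was at -0.0235 with the muscle covariate. Mki67 was at 0.0023 with RLE factors and with DESeq2, 0.0264 with limma-voom, 0.0031 with only the 2 groups, 0.0181 with a salivary score and 0.0114 with the block. Leaving out 1 sample at a time, Csf1r ranged over -0.103 to 0.0049, Fat1 over -0.0827 to 0.218 and Mki67 over -0.0668 to 0.0877. Depth limits the fold changes of genes with few counts, such as Il17a with 8 counts over the 8 hyperplasia samples.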
